A study of Mus musculus with 58 samples.

Results

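The genes described here encode 9 enzymes that break purine nucleotides down: Ampd1, Ampd2, Ampd3, Nt5c1a, Entpd1, Nt5e, Ada, Gda and Xdh. They were taken as the probe sets of the deposited array table that carry 1 of these symbols and no other, averaged per symbol, and make up 9 of the 18820 genes measured. Ampd2 had 2 probe sets and each of the others had 1. The list was drawn up with results of these arrays known: Entpd1 and Gda were included because their levels separated tumour-bearing mice from controls in all 3 tissues, so their tumour differences are given as a description, without a test.

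Muscle keeps a large pool of adenine nucleotides, and AMP that builds up when ATP is spent leaves that pool by parallel routes. AMP deaminase turns AMP into IMP inside the cell, while a cytosolic nucleotidase splits AMP to adenosine. Outside the cell, ectonucleotidases strip ATP and ADP down to AMP and then to adenosine, adenosine deaminase makes inosine, and guanine deaminase and xanthine oxidoreductase carry the freed bases on to uric acid.

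The arrays came from male CD2F1 mice, an F1 hybrid of BALB/c and DBA/2, of about 20 g at the start. Mice of group T carried a subcutaneous C26 tumour, grown from a mouse colon carcinoma cell line that causes cachexia, the wasting of body and muscle mass in cancer, and mice of group C were sham injected. C + WBV and T + WBV mice were in addition put on a platform for whole-body vibration, 15 min per day at 45 Hz with an acceleration of 1 g, and all mice were killed on day 19. RNA of the extensor digitorum longus (EDL), a fast muscle, and the soleus (SOL), a slow muscle, was measured in the same mice, of which 6 were C, 6 were C + WBV, 6 carried a tumour without vibration and 5 with it, and RNA of the heart (HRT) in 3 mice of each group. The model rests on 1 tumour line, vibrated mice were killed at rest rather than straight after a session, and the tissues were taken whole.

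Levels are log2 values after robust multi-array averaging (RMA), so a difference of 1 is a 2-fold change of the signal, and levels of different genes cannot be ranked against each other. Array medians lay between 4.52 and 4.60. Marker genes put each tissue where its label does: fast-fibre markers averaged 12.51 in EDL, 8.98 in SOL and 4.15 in HRT of C mice, and heart-muscle markers averaged 11.67 in HRT against 4.24 in both muscles. A gene was called when limma's adjusted p, over all 18820 genes, was under 0.01. In whole tissue, fewer cells of a type and less RNA per cell cannot be told apart. Replicates were separate mice, and replicate numbers do not pair mice between groups.

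Promoter windows of 7 of the 9 genes were found in the RefSeq table (build GRCm38.p6), each running from 250 bases before to 50 bases after an annotated start. Those of Gda and Entpd1 are shown because these genes were high in every tumour-bearing array, and 1 of Ampd3 because its level in EDL moved furthest. All are written 5′ to 3′ in lower case on the strand of the gene, and capitals mark matches to the motifs named after them.
Gda, chr19:21472612-21472911, minus strand: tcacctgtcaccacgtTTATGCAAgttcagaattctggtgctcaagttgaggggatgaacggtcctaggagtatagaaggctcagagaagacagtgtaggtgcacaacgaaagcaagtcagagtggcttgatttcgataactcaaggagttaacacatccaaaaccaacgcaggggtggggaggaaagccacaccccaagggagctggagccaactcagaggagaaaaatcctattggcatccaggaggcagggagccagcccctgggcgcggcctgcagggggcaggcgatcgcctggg
Entpd1, upstream start, chr19:40612116-40612415, plus strand: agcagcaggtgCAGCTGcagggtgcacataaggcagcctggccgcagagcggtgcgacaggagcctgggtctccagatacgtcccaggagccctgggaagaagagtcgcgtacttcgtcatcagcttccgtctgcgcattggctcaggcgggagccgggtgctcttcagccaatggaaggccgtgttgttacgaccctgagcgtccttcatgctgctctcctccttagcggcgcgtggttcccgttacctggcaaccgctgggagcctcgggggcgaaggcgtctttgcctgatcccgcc
Entpd1, downstream start, chr19:40659520-40659819, plus strand: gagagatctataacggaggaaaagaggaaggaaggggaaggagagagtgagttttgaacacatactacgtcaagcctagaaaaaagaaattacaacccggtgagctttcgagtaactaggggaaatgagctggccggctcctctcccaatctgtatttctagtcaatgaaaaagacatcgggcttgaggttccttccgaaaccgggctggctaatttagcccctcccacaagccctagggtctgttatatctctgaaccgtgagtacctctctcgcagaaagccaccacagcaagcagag
Ampd3, second of 3 starts, chr7:110772354-110772653, plus strand: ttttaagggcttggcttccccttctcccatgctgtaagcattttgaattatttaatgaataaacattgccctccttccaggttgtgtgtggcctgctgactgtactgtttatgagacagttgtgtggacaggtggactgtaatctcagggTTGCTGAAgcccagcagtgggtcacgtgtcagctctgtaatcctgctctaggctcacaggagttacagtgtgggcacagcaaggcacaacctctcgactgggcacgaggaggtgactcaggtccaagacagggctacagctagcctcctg

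Both strands of all 11 windows of these genes were searched for 5 motifs. The C/EBP motif TTGCNNAA was in the Gda window, starting at base 17, and in the Ampd3 window shown, starting at base 151, and is found in 10.8% of the 32851 promoter windows of the table. The upstream Entpd1 window held the muscle E-box CAGCTG at base 12, present in 16.3% of all windows, and the Ada window held the STAT motif TTCNNNGAA at base 161, present in 8.3%. No window of these genes held the FoxO motif GTAAACA or the glucocorticoid receptor motif ACANNNTGT, which 3.65% and 6.85% of all windows hold. No matches overlapped, and Gda and Entpd1 shared none of the 5 motifs in these windows.

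In resting control mice the routes were unequally represented across tissues. Ampd1, the AMP deaminase of skeletal muscle, had a mean level of 11.86 ± 0.15 (SD, n = 6) in EDL and 10.89 ± 0.09 (n = 6) in SOL but 3.25 ± 0.38 (n = 3) in HRT. Relative to EDL it was 1.96-fold lower in SOL (adjusted p = 5.19e-06). In HRT it lay near the low end of the scale, where array background can set the value, so its difference from the muscles (-8.63 on the log2 scale against EDL) is given without a fold. Ampd3, the form first described in red blood cells, ran the other way, at 6.81 ± 0.23 in EDL, 8.97 ± 0.11 in SOL and 8.52 ± 0.15 in HRT, that is 4.48-fold higher in SOL than in EDL (adjusted p = 2.09e-08) and 3.23-fold higher in HRT than in EDL (adjusted p = 7.66e-05). SOL and HRT were not told apart for Ampd3 (adjusted p = 0.339).

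For the remaining genes HRT was mostly the tissue with the highest level. Nt5e, the cell-surface enzyme that makes adenosine from AMP, was 2.76-fold higher in HRT than in EDL (adjusted p = 4.41e-08) and 2.34-fold higher than in SOL (adjusted p = 2.92e-06), while the muscles did not differ beyond their spread (adjusted p = 0.355). Gda, which deaminates guanine, followed the same order, 1.95-fold higher in HRT than in EDL (adjusted p = 8.25e-06) and 1.69-fold higher than in SOL (adjusted p = 0.000412), the latter lost without HRT C replicate 3 (0.0225). Xdh, the last enzyme before uric acid, was 1.96-fold and 1.92-fold higher in HRT than in EDL and SOL (adjusted p = 0.00287 and 0.00493), but both calls were lost without the mouse block (0.0103 and 0.0163), without HRT C replicate 3 (0.0477 and 0.0714) and without HRT C replicate 1 (0.0211 and 0.0324), the first also without EDL C replicate 3 (0.0144) and the second without SOL C replicate 3 or 6 (up to 0.0194). Entpd1, which removes ATP and ADP outside the cell, was about equally high in SOL and HRT, 1.48-fold and 1.46-fold above EDL (adjusted p = 3.89e-05 and 0.000606). Nt5c1a, the cytosolic nucleotidase that acts on AMP, was lowest in SOL, 1.78-fold under EDL (adjusted p = 0.00378) and 2.45-fold under HRT (adjusted p = 0.00014); the first of these calls was lost without the mouse block (0.015), with the replicate number as a block (0.0134) and without EDL C replicate 2 or 4 or SOL C replicate 5 (up to 0.0162).

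Ada and Ampd2, the latter the AMP deaminase form of liver and many other tissues, showed no called tissue difference. In all, 4 of the 9 genes were called between SOL and EDL, 6 between HRT and EDL and 5 between HRT and SOL, where 13.9%, 31.9% and 25% of all genes were called. Endothelial markers were also higher in HRT than in EDL (9 of 10 called, list mean 8.32 against 7.48), as were macrophage markers (10 of 10 called, 7.32 against 5.47). Their part in the tissue differences was not tested.

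Entpd1 and Gda were higher in every tumour-bearing array than in every control array of the same tissue. This is what chose them, and 47 of the 18820 genes (0.25%) did the same in all 3 tissues. Entpd1 ran from 6.89 over a median of 7.32 to 7.56 in EDL of C mice and from 8.30 over 8.41 to 8.69 in T mice. In SOL the C arrays spanned 7.63 to 8.12 with a median of 7.78 and the T arrays 8.31 to 9.11 with a median of 8.88. The 3 C hearts stood at 7.83, 7.79 and 7.81 and the 3 T hearts at 8.69, 9.05 and 8.83. Entpd1 thus lay 2.27-fold, 1.98-fold and 2.07-fold higher in T than in C in EDL, SOL and HRT, with log2 differences of 1.18 (SE 0.11), 0.98 (SE 0.12) and 1.05 (SE 0.13).

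The gap for Gda was wider. Its C arrays spanned 5.51 to 6.38 in EDL with a median of 5.71, and its T arrays 7.21 to 7.75 with a median of 7.48. In SOL they spanned 5.70 to 6.29 with a median of 6.08 in C and 7.10 to 7.82 with a median of 7.62 in T. The C hearts stood at 6.77, 6.46 and 7.10 and the T hearts at 8.10, 8.45 and 8.37. The differences were 3.14-fold, 2.89-fold and 2.89-fold in the 3 tissues, on the log2 scale 1.65 (SE 0.15), 1.53 (SE 0.16) and 1.53 (SE 0.17).

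**Figure D1:**
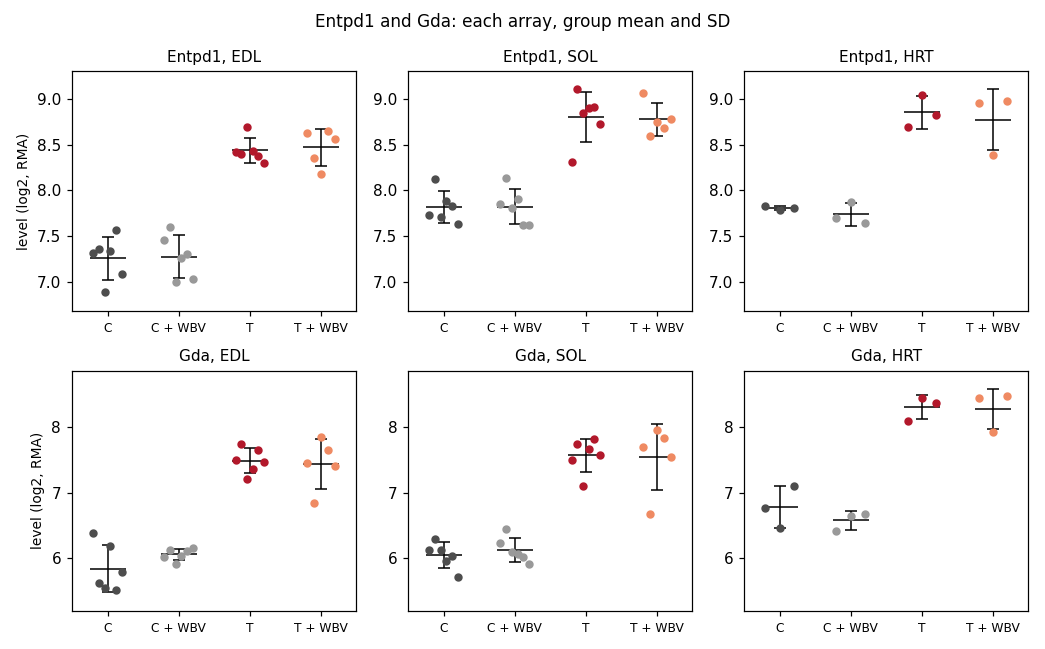
Log2 level (y axis, RMA) of Entpd1 and Gda in EDL, SOL and HRT by group (x axis), with 1 point per array, a horizontal line at the group mean and bars of 1 SD. In each panel all T and T + WBV points lie above all C and C + WBV points. The gaps are narrowest in SOL, between 8.13 and 8.31 for Entpd1 and between 6.44 and 6.67 for Gda.

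The T + WBV and C + WBV arrays were also among those that chose these genes, so their values add a description and no independent support. Entpd1 stood at 8.63, 8.35, 8.18, 8.64 and 8.56 in the 5 T + WBV EDL arrays against 7.00 to 7.60 in C + WBV. Gda stood at 7.46, 6.84, 7.84, 7.65 and 7.41 in EDL against 5.91 to 6.15, and at 7.70, 6.67, 7.96, 7.84 and 7.54 in SOL against 5.91 to 6.44. The second of these values in each muscle belongs to the T + WBV mouse that kept its body mass, at 100.9% of the starting value, and it is the lowest of its group. The array just inside the gap was therefore this mouse for Gda in both muscles, and just outside it lay a C array at 6.38 in EDL and a C + WBV array at 6.44 in SOL. In HRT, Entpd1 was 8.96, 8.39 and 8.98 and Gda 8.45, 7.93 and 8.47 in T + WBV, and the same mouse, the second, was again the lowest. Fold differences between T + WBV and C + WBV were 2.29, 1.94 and 2.05 for Entpd1 and 2.61, 2.68 and 3.27 for Gda in EDL, SOL and HRT.

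Of the other 7 genes, Ampd3 and Ampd1 had tumour differences that differed between tissues. Ampd3 in EDL ran from 6.62 over a median of 6.75 to 7.24 in C and from 7.00 over 9.82 to 10.42 in T. Of the 6 T arrays 5 lay at 9.49 or above, and T replicate 3, a mouse at 91% of its starting body mass, lay at 7.00 within the control range. Ampd3 was 6.15-fold higher in T than in C (log2 2.62, SE 0.43, adjusted p = 4.76e-05). Without T replicate 3 the log2 difference was 3.11.

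In SOL, where Ampd3 was already high in controls, the arrays ran from 8.80 to 9.11 in C and from 9.51 to 10.47 in T without overlap, and the difference was 1.93-fold (log2 0.95, SE 0.13, adjusted p = 1.71e-05). The C hearts stood at 8.35, 8.64 and 8.56 and the T hearts at 9.02, 8.80 and 8.82, a log2 difference of 0.36 (SE 0.12) that was not called (adjusted p = 0.0695). The tumour difference itself was smaller in SOL than in EDL by 1.67 on the log2 scale (SE 0.40, adjusted p = 0.00698) and smaller in HRT than in EDL by 2.29 (SE 0.50, adjusted p = 0.00181), and SOL and HRT were not told apart (adjusted p = 0.598). The call between SOL and EDL was lost under 3 alternative settings and without any of 17 single arrays, while that between HRT and EDL was kept under all of them. Of the 7 genes with a test, Ampd1 and Ampd3 were called for the tumour difference in SOL against EDL and in HRT against EDL, and 0 in HRT against SOL, where 2.02%, 3.5% and 1.68% of all genes were called. The Ampd1 call that involves HRT rests on a level there too low to show a fall.

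Ampd1 moved opposite to Ampd3. In EDL it ran from 11.67 over a median of 11.87 to 12.10 in C and from 9.60 over 10.00 to 11.18 in T, so that every T array lay below every C array, T replicate 3 again standing closest to the controls. The fall was 3.31-fold in EDL (log2 -1.73, SE 0.22, adjusted p = 4.33e-06). In SOL the C arrays spanned 10.74 to 10.99 and the T arrays 10.23 to 10.57, a fall of 1.39-fold (log2 -0.48, SE 0.08, adjusted p = 8.37e-05). In 1 fit of all 58 arrays, which shares its error with EDL, the SOL differences of Ampd1 and Ampd3 missed the threshold (adjusted p = 0.0342 and 0.0144). The tumour difference in SOL lay 1.25 above that in EDL (SE 0.23, adjusted p = 0.000409). In HRT the C arrays stood at 2.81, 3.52 and 3.42 and the T arrays at 3.29, 3.57 and 3.43, a level from which a fall could not have been seen, so the tumour differences of Ampd1 in HRT and in the muscles cannot be compared. EDL of T mice thus came to 10.14 ± 0.57 (n = 6), below the mean of 10.41 ± 0.13 (n = 6) in SOL of the same mice. In T + WBV mice the order was reversed, at 10.67 ± 0.65 (n = 5) in EDL and 10.53 ± 0.19 (n = 5) in SOL. Neither pair was tested.

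Ampd2 did not pass in any tissue, with log2 differences of -0.16, -0.03 and 0.17 (adjusted p = 0.219, 0.909 and 0.48). Its arrays overlapped between T and C in all 3 tissues.

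**Figure D2:**
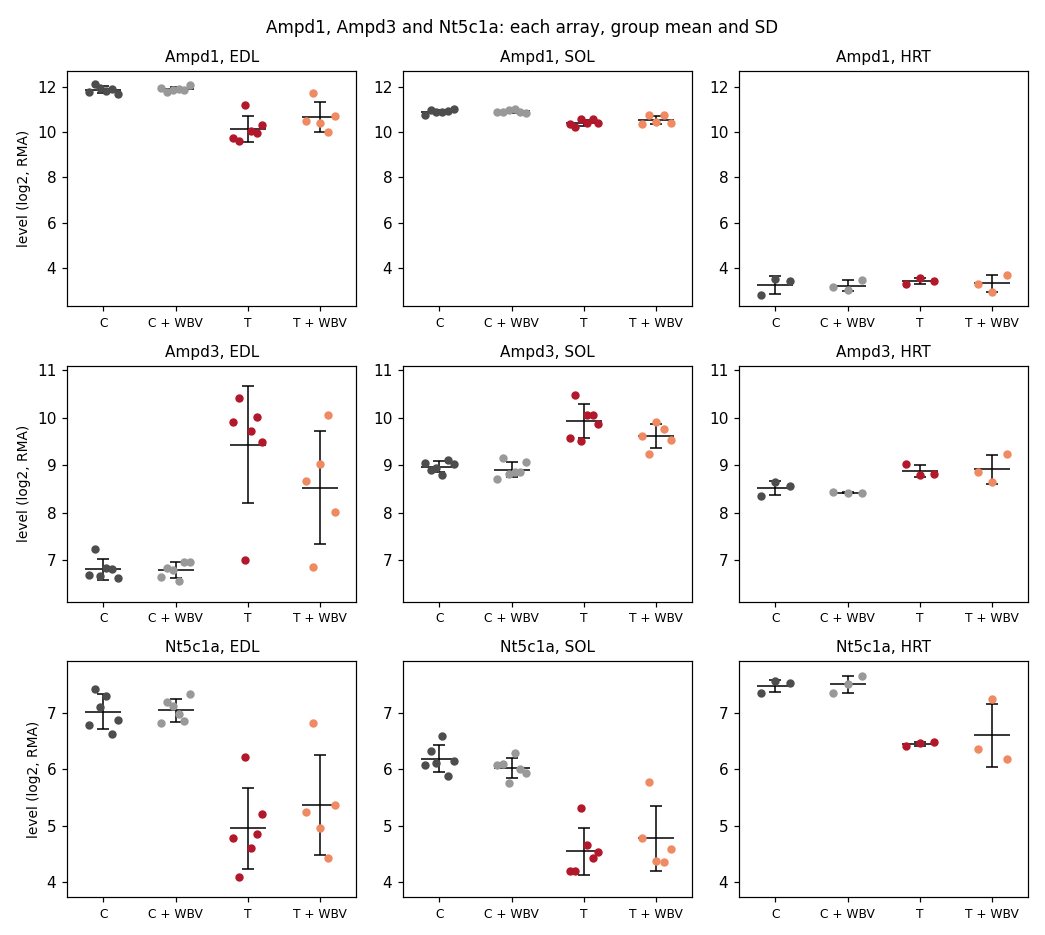
Log2 level (y axis, RMA) of Ampd1, Ampd3 and Nt5c1a by tissue and group (x axis), with 1 point per array, a line at the group mean and bars of 1 SD. In EDL the Ampd3 arrays of T mice sit between 9.49 and 10.42 apart from 1 at 7.00, while Ampd1 and Nt5c1a fall; in HRT Ampd1 stays near 3 in all groups.

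Nt5c1a, which makes adenosine from AMP inside the cell, fell in all 3 tissues. Its EDL arrays ran from 6.64 over a median of 6.99 to 7.42 in C and from 4.09 over 4.81 to 6.23 in T. In SOL they ran from 5.89 over 6.14 to 6.58 in C and from 4.19 over 4.47 to 5.31 in T. The C hearts stood at 7.36, 7.56 and 7.52 and the T hearts at 6.41, 6.47 and 6.48. C and T did not overlap in any tissue, where 15.4%, 10.6% and 32% of all genes did not overlap in EDL, SOL and HRT, and the falls were 4.19-fold in EDL (adjusted p = 1.38e-05), 3.13-fold in SOL (adjusted p = 4.92e-06) and 2.04-fold in HRT (adjusted p = 0.00377). The highest T array of both muscles was replicate 3. The difference in HRT missed the threshold when any of the 6 arrays of C or T was left out, with adjusted p up to 0.017, and also in 1 fit of all 58 arrays (0.0511).

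Nt5e, which makes adenosine at the cell surface, moved the other way. Its EDL arrays spanned 4.56 to 5.28 in C and 5.83 to 6.30 in T, and its hearts stood at 6.24, 6.49 and 6.73 in C and at 7.69, 7.70 and 7.88 in T. In SOL the ranges touched, 4.79 to 5.83 in C and 5.76 to 6.58 in T. Nt5e rose 2.02-fold in EDL (adjusted p = 2.28e-05), 2.03-fold in SOL (adjusted p = 0.000661) and 2.41-fold in HRT (adjusted p = 0.00235). The call in HRT was lost without C replicate 1, T replicate 2 or T replicate 3, with adjusted p up to 0.014. No difference of its tumour effect between tissues was called: HRT exceeded EDL by 0.26 (SE 0.29, adjusted p = 0.70) and SOL by 0.26 (SE 0.29, adjusted p = 0.745).

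Ada, which turns adenosine into inosine, was called in HRT and not in the muscles. The C hearts stood at 4.15, 4.12 and 4.05 and the T hearts at 5.29, 5.69 and 4.97, a rise of 2.31-fold (adjusted p = 0.00242), with the call lost without C replicate 3 (0.012) or T replicate 2 (0.016). In EDL its log2 difference was 0.37 (SE 0.14, adjusted p = 0.0427). In SOL the ranges of 3.60 to 4.22 in C and 4.36 to 4.62 in T did not overlap, and the log2 difference was 0.51 (SE 0.28, adjusted p = 0.216). The shared spread in SOL was widened by T + WBV replicate 4 at 6.69, and without this array the same difference had an adjusted p of 0.00335. The HRT effect exceeded that in EDL by 0.88 (SE 0.35), which was not called (adjusted p = 0.123) but was called without that same SOL array (0.00843).

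Xdh rose 2.05-fold in EDL (log2 1.04, SE 0.23, adjusted p = 0.0012) and 2.67-fold in HRT (log2 1.41, SE 0.26, adjusted p = 0.00291). In SOL the difference of 0.89 (SE 0.26) just missed the threshold (adjusted p = 0.0131). The control mice were spread widely, with an SD of 0.66 in SOL. Their EDL arrays stood at 7.69, 7.40, 6.44, 7.86, 7.71 and 6.47 and their SOL arrays, in the same order of mice, at 7.34, 7.78, 6.58, 8.03, 7.62 and 6.40, so that C replicates 3 and 6 were the low ones in both muscles. The heart of the first of these mice, C replicate 2 of the heart set, was also the lowest of its group, at 7.56 against 8.43 and 8.70. The T hearts lay close together at 9.56, 9.68 and 9.69, and the call in HRT was lost without T replicate 2 or T replicate 3, with adjusted p of 0.015 and 0.014.

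**Figure D3:**
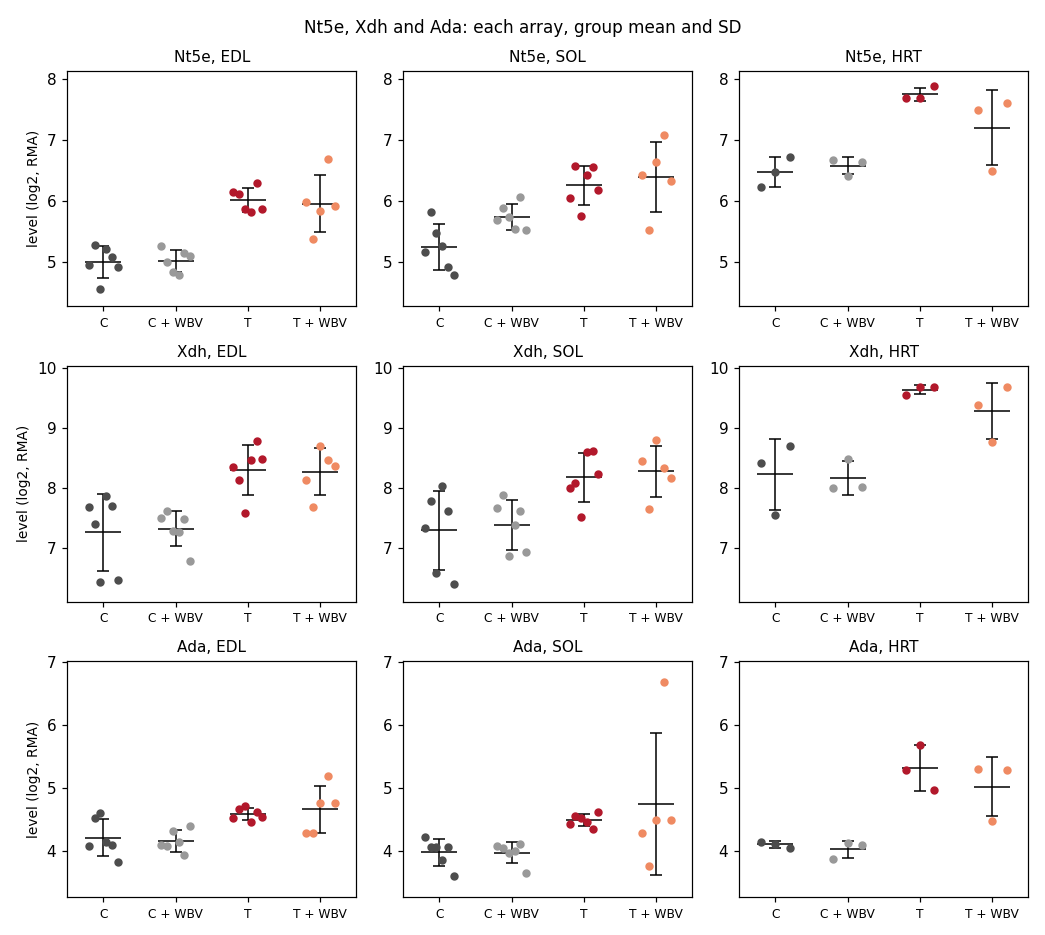
Log2 level (y axis, RMA) of Nt5e, Xdh and Ada by tissue and group (x axis), with 1 point per array, a line at the group mean and bars of 1 SD. Xdh shows 2 low C mice in each muscle, at 6.40 to 6.58, and Ada in SOL shows 1 T + WBV array at 6.69 above all others.

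Counted together, T against C called 5 of these 7 genes in EDL, 4 in SOL and 4 in HRT, where 22.4%, 13.7% and 5.74% of all genes were called; Entpd1 and Gda, which were chosen on these arrays, are left out of the counts. Because the genes were collected with these results in view, the shares describe the list and support nothing about it. T + WBV against C + WBV called the same 5 in EDL, Ampd1, Ampd3 and Nt5c1a in SOL, and none of the 7 in HRT, against 11.9%, 3.61% and 1.49% of all genes. T + WBV against C, which shares its control arrays with T against C, called 5, 4 and none of the 7, against 11.1%, 4.67% and 1.47%. The count in HRT turned on 1 array, T + WBV replicate 2, the mouse that kept its body mass. Without this array T + WBV against C + WBV called 5 of the 7 genes in HRT in place of 0. They were Ampd3, Nt5c1a, Nt5e, Ada and Xdh. The share of all genes called in that fit was not taken, so the change marks nothing particular to these genes. In T against C the HRT count was no firmer, since without T replicate 2 the calls of Nt5c1a, Nt5e, Ada and Xdh were all lost. In SOL the call for Ampd1 (log2 -0.38, adjusted p = 0.00396) was lost when only the compared groups were fitted (0.0225), after a second quantile normalization (0.0252), with the covariate for the description suffix (0.0144), in 1 fit of all 58 arrays (0.172) and without C + WBV replicate 4 or T + WBV replicate 1, 3 or 5 (up to 0.0198). The call for Ampd3 in SOL was lost in 1 fit of all 58 arrays (0.139) and without T + WBV replicate 3 (0.013).

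When both tumour-bearing groups were set against both control groups, Nt5e in EDL had no overlap between them, with all tumour-bearing arrays higher (3.64% of all genes did not overlap in EDL). In SOL it was Ampd3, higher, and Ampd1, lower (1.74% of all genes). For Ampd1 the ranges all but touched, with the highest tumour-bearing array at 10.7412 and the lowest control array at 10.7413. In HRT Ampd3, Xdh and Ada were higher and Nt5c1a lower without overlap (8.49% of all genes). The gap for Ampd3 was narrow, between a control array at 8.638 and a tumour-bearing array at 8.649.

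The T + WBV values behind these calls were uneven. Ampd3 in EDL stood at 8.66, 6.86, 9.02, 10.06 and 8.01, with replicate 2 inside the control range. Nt5c1a stood at 5.25, 6.82, 4.96, 4.43 and 5.36 in EDL and at 6.37, 7.25 and 6.19 in HRT. Nt5e in HRT stood at 7.50, 6.50 and 7.61. In each case the second value is the same mouse, and each lies at or near the controls. T + WBV against C + WBV gave log2 differences in EDL of 1.73 for Ampd3 (adjusted p = 0.00737), -1.23 for Ampd1 (0.000626), -1.69 for Nt5c1a (0.000576), 0.94 for Nt5e (0.000338) and 0.95 for Xdh (0.00707). The calls for Ampd3 and Xdh were each lost without any of 9 single EDL arrays, with adjusted p up to 0.0373.

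**Figure D4:**
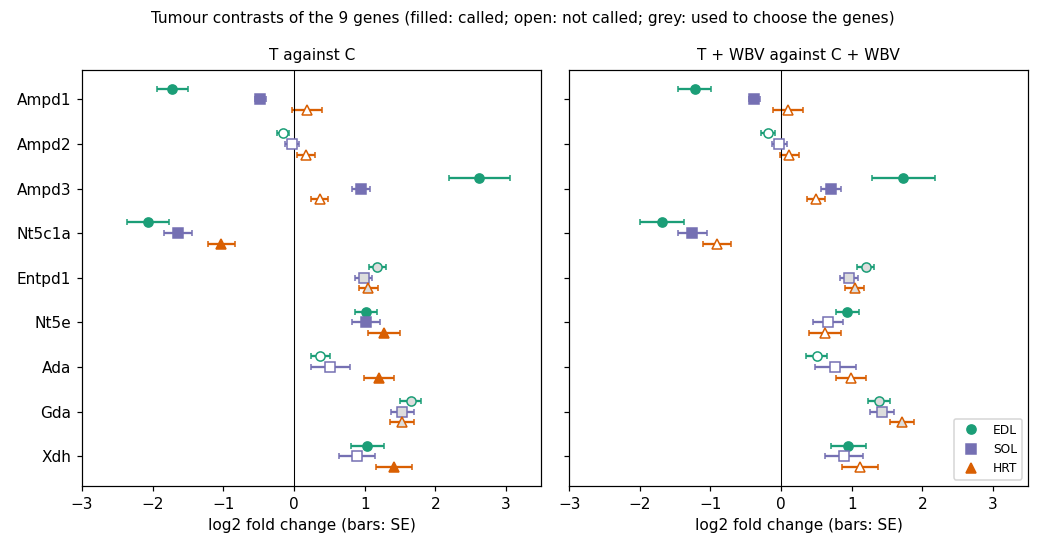
Log2 fold change (x axis) of the 9 genes (y axis) between T and C and between T + WBV and C + WBV, by tissue, with bars of 1 SE. Filled symbols mark adjusted p under 0.01, open symbols the rest, and grey symbols the 2 genes that were chosen on these contrasts; Ampd3 in EDL reaches 2.62 and Nt5c1a in EDL -2.07.

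Vibration itself moved none of the 9 genes past the limma threshold in any tissue. The contrast between vibrated and unvibrated mice called 0% of all genes in tumour-bearing mice (T + WBV against T) and in controls, and so did its interaction with the tumour, and 0 of the 9 genes passed by the intensity-based moderated test. At an unadjusted p under 0.05, T + WBV against T held 902, 939 and 1407 genes in EDL, SOL and HRT, and C + WBV against C held 627, 598 and 625. Of the 9 genes these included Ampd1 in EDL (0.53 on the log2 scale, 95% interval 0.06 to 1.00, adjusted p = 0.867), Ampd3 in SOL (-0.31, -0.59 to -0.03, adjusted p = 0.928) and Nt5e in HRT (-0.55, -1.03 to -0.08, adjusted p = 0.608) for T + WBV against T. Without T + WBV replicate 2 these differences were 0.26, -0.22 and -0.20.

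For C + WBV against C it was Nt5e in SOL, at 4.79 to 5.83 in C and 5.53 to 6.07 in C + WBV (0.50, 0.08 to 0.91, adjusted p = 1.00). Fast-fibre markers in SOL also stood higher in C + WBV, with a list mean of 9.87 (9.10 to 10.61) against 8.98 (8.70 to 9.21), and their part was not tested. For Entpd1 the intervals of the vibration difference in tumour-bearing mice lay within -0.37 and 0.28 in all tissues, and for Gda within -0.38 and 0.33, so that vibration differences larger than these were not seen. Ampd3 in EDL had the widest interval, -0.91 (-1.84 to 0.02), and without T + WBV replicate 2 the difference was -0.49, without T replicate 3 it was -1.39.

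Since tumour-bearing mice had lost body mass to unequal degrees, from 75.9% to 100.9% of the starting value, levels in the 11 tumour-bearing mice were set against body mass in 18 relations, 9 genes in EDL and in SOL. By Pearson's r, 8 of 18 passed an adjusted p of 0.05 in a permutation test, and by Spearman's rho none did. The same relations were not computed over all genes, so no share stands beside this count and it marks nothing particular to these enzymes. Nt5c1a in SOL was highest in the mice that kept most mass (r = 0.92, adjusted p = 0.0133; rho = 0.74, adjusted permutation p = 0.116), and Nt5c1a in EDL gave r = 0.85 (adjusted p = 0.0218; rho = 0.64). Gda ran the other way, with r = -0.86 in EDL and -0.85 in SOL (adjusted permutation p = 0.0218 and 0.0229; rho = -0.74 and -0.55), as did Ampd3, with r = -0.80 and -0.70 (both 0.0218; rho = -0.59 and -0.67). Ampd1 and Xdh passed in EDL (r = 0.84 and -0.78; adjusted permutation p = 0.0218 and 0.0256). Entpd1 did not pass in either muscle (r = 0.34 and -0.06; rho = 0.54 and 0.05).

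These relations rest on the mice at the light-loss end. When T + WBV replicate 2 and T replicate 3, the mice with the most extreme body mass of the 11, were left out, none of the 18 passed, and r fell to 0.58 for Nt5c1a in SOL, -0.42 and -0.13 for Gda in EDL and SOL and -0.38 and -0.42 for Ampd3. Entpd1 in EDL went the other way, to r = 0.83 over these 9 mice (permutation p = 0.0045, adjusted p = 0.0818). Within the 6 T mice none passed an exact permutation test after adjustment (all at 0.427 or above). With 6 mice no single relation could have passed alone after adjustment over 18, so this result decides little. The r was 0.86 for Nt5c1a in SOL and -0.89 for Ampd3 in EDL, with T replicate 3 included. With carcass mass, which leaves out the tumour, in place of body mass 5 of the 18 passed. Gda in SOL (adjusted permutation p = 0.0936), Ampd3 in SOL (0.0693) and Xdh in EDL (0.124) then no longer passed.

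**Figure D5:**
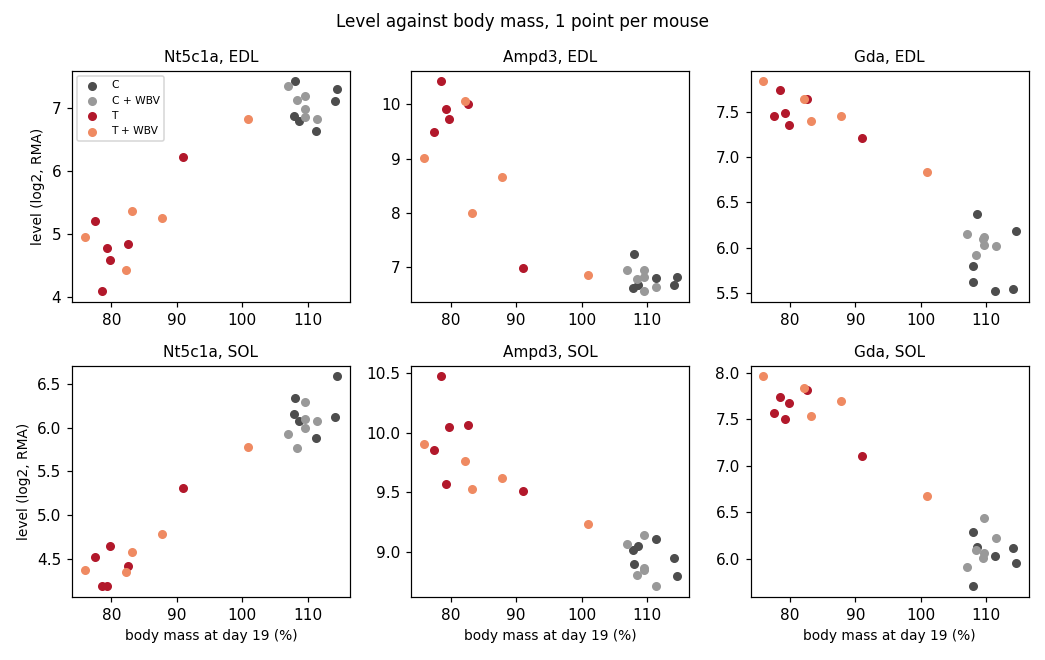
Log2 level (y axis, RMA) of Nt5c1a, Ampd3 and Gda in EDL (top) and SOL (bottom) against body mass at day 19 as a percentage of the starting value (x axis), with 1 point per mouse, coloured by group. In EDL the T + WBV mouse at 100.9% lies at 6.82 for Nt5c1a and 6.86 for Ampd3, among the controls, while for Gda it stays above all controls at 6.84.

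The 2 muscles of a mouse were compared after these values had been seen, as 9 relations over the 11 tumour-bearing mice. These too were not computed over all genes. Gda levels in EDL and SOL of the same mouse were related (r = 0.94, adjusted p = 0.00144; rho = 0.83, adjusted permutation p = 0.0128), also without the 2 mice farthest from the EDL median (r = 0.81, permutation p = 0.01, unadjusted). Ampd3 gave r = 0.78 (adjusted permutation p = 0.0033) and 0.66 without 2 mice. Nt5c1a, Xdh, Ada and Nt5e passed by r, between 0.78 and 0.93. Without 2 mice each, r between 0.22 and 0.64 remained, with permutation p from 0.0646 to 0.591. By rho, Xdh (0.85), Nt5c1a (0.79), Ampd3 (0.78) and Ada (0.73) passed with all 11 mice. Their adjusted permutation p was 0.0128, 0.0151, 0.0151 and 0.0267. Nt5e did not pass by rho (0.47, adjusted permutation p = 0.194). Ampd1, Ampd2 and Entpd1 did not pass (r = 0.52, -0.20 and 0.19).

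Other genes of purine metabolism were followed through 7 lists with 69 measured genes. In EDL, T against C called 6 of the 69 higher and 18 lower, where 10.7% and 11.6% of all genes were called so. The counts in SOL were 1 and 14 (5.06% and 8.66% of all genes), and those in HRT were 2 and 3 (2.7% and 3.04%). The single gene of these lists called in all 3 tissues was Pnp, purine nucleoside phosphorylase, which frees the base from inosine and guanosine and so stands between Ada and Xdh. Its C arrays spanned 5.01 to 5.97 in EDL and its T arrays 5.98 to 7.15, and it rose by 1.03, 1.02 and 1.15 on the log2 scale in EDL, SOL and HRT (adjusted p = 0.000384, 0.00262 and 0.00881).

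Of 10 measured genes of the purine nucleotide cycle and salvage, 4 fell in EDL and 5 in SOL, with a median log2 difference of -0.23 and -0.33 against -0.03 and -0.01 over all genes. They included Adk, the kinase that returns adenosine to AMP (-0.98 and -0.90; adjusted p = 4.02e-05 and 0.000355), and Adal, an adenosine deaminase-like enzyme (-0.56 and -0.47; adjusted p = 8.37e-05 and 0.0065). Of 7 adenylate and guanylate kinases 3 fell in EDL and 2 in SOL, led by Ak1, which interconverts AMP, ADP and ATP in muscle cytosol (-1.16 and -0.83; adjusted p = 2.28e-05 and 0.000359), with Ak4 at -0.88 in EDL and Ak3 at -0.64 and -0.52. Of 11 genes of purine synthesis from scratch 2 fell in EDL and 1 in SOL, with Ppat, the enzyme of the committed step, at -0.89 and -0.47 and Paics at -0.24 in EDL. Over all genes, 11.6% were called lower in EDL and 8.66% in SOL. The counts for synthesis lie near these shares and those of the other lists lie above them, but each list holds few genes.

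Of 10 other ectonucleotidases none was called in HRT, 3 fell and 1 rose in EDL, and 4 fell in SOL. Alpl, tissue-nonspecific alkaline phosphatase, which can also strip phosphate from extracellular nucleotides, fell by 1.62 in EDL and by 1.76 in SOL (adjusted p = 1.57e-05 and 2.84e-05), against the direction of Entpd1 and Nt5e in the same muscles. Entpd4 fell by 1.16 and 0.63 and Entpd5 by 0.46 and 0.77. Of 6 intracellular nucleotidases Nt5c3 rose in EDL (0.73, adjusted p = 0.000306), and Nt5m, a mitochondrial form, fell in EDL and HRT (-0.61 and -0.59).

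The 14 receptors measured were all P2X and P2Y nucleotide receptors, and adenosine receptors were not analysed here. Of these 14, 2 rose and 2 fell in EDL and 2 fell in SOL. P2ry1, a receptor for ADP, fell by 1.35 and 1.52 (adjusted p = 1.97e-05 and 7.61e-06), while P2rx4, an ATP-gated channel, rose by 0.68 in EDL and P2rx6 fell by 0.70 in HRT. Of 11 transport and urate genes Abcc4, an exporter, rose by 0.48 in EDL and 0.56 in HRT, and the nucleoside carriers Slc28a2 and Slc29a3 fell by 0.56 and 0.36 in EDL. None of the 69 was called for vibration.

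Marker lists of other cells moved with the tumour as well; over all genes, 10.7%, 5.06% and 2.7% were called higher and 11.6%, 8.66% and 3.04% lower in EDL, SOL and HRT. Macrophage markers were called higher for 5 of 10 genes in EDL, 0 in SOL and 6 in HRT, with list means of 5.47 (5.20 to 5.75) in C and 6.11 (5.55 to 6.48) in T for EDL, 6.13 (5.82 to 6.30) and 6.32 (5.94 to 6.74) for SOL, and 7.32 (7.00 to 7.55) and 8.11 (8.01 to 8.20) for HRT. Neutrophil markers were called higher for 4, 6 and 5 of 11, with list means of 3.33 (3.15 to 3.48) and 3.96 (3.45 to 4.32) in EDL, 3.25 (3.12 to 3.40) and 4.19 (3.73 to 4.45) in SOL and 3.41 (3.26 to 3.63) and 4.62 (4.31 to 5.08) in HRT. Of 9 lymphocyte markers none was called in any tissue. Endothelial markers moved both ways, with 3 of 10 higher and 1 lower in EDL, and fibroblast markers fell for 5 of 7 in EDL and 6 of 7 in SOL. Of the fast-fibre markers 3 of 6 fell in EDL and 1 of 6 in SOL. Of 7 heart-muscle markers 0 were called in HRT by limma. Their list mean did not overlap between C (11.54 to 11.75) and T (11.10 to 11.47). With 3 hearts in each group, 32% of all genes did not overlap either. The part of these markers in the HRT differences, such as the lower Nt5c1a, was not tested. Entpd1, Nt5e, Ada and Xdh are also made by blood, endothelial or immune cells, and the part of such cells in their differences was not tested.

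The genes whose levels ran most like those of each enzyme over the 58 arrays, after centring on the tissue means, are given as a description, since these arrays share tissues, mice and the tumour contrast. Osmr, a receptor subunit for oncostatin M, was the nearest to both Gda (r = 0.97) and Entpd1 (r = 0.95), with the acute-phase gene Serpina3n (r = 0.97) next for Gda and Tmem176a (r = 0.93) for Entpd1. Ampd3 ran with Lrrc58 and Mocs1 (r = 0.97 and 0.96), Nt5c1a with Nrep and Reep1 (r = 0.97 for each) and Ampd1 with Prkag3, a muscle subunit of AMP-activated protein kinase, and Xrcc5 (r = 0.95 and 0.94). Xdh ran with Slc43a3 and Zbtb16 (r = 0.94 and 0.91) and Nt5e with Ifi207 and Uhrf2 (r = 0.91 and 0.90). Ada had looser neighbours in Eps8 and Pld1 (r = 0.76 for each), and Ampd2 had Dbn1 and Rreb1 (r = 0.58 and 0.51).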

How the data were processed

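RNA of 58 samples was hybridised to GeneChip Mouse Gene 1.1 ST arrays: 23 EDL, 23 SOL and 12 HRT from 23 mice. The deposited table holds log2 values that the authors normalised together by RMA after array quality control; the sources do not give a version, and RMA shrinks differences of dim probe sets. No other column of per-sample values was left out (0). Of 35556 probe sets 21218 had 1 gene symbol in the platform annotation, 1881 several and 12457 none, and the first were averaged to 18820 genes. Groups and mouse numbers come from the sample labels; the number of arrays limits the precision.

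Within each tissue limma 3.58.1 (R 4.3.3) was fitted to the 4 groups, with a prior variance that follows the mean level, and p-values were adjusted over all genes by Benjamini-Hochberg with a threshold of 0.01. Tissues were compared in 1 fit of all arrays with the mouse as a random block (correlation 0.137). Body mass relations used permutation tests with 100000 resamples (scipy 1.17.1). Motif and promoter sequences come from RefSeq (GRCm38.p6). Alternatives were another prior variance, an intensity-based moderated test, other groups in the fit, a second quantile normalization, a filter at the median level, the replicate number or the mouse as a block, the 6 arrays whose description ends in a suffix as a covariate, the brightest probe set, and each array left out.

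The 9 genes and all lists were chosen with earlier results of these data known. The text names all 9 genes, up to 3 genes per pathway list with the largest difference among those called in T against C, any of them called for vibration, and the 2 genes most like each of the 9.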

Additional observations from a re-analysis of the deposited data

Results flagged for a closer look

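In 6 of the 72 groups of 5 or 6 arrays examined, the highest or lowest array stood apart by Dixon's ratio, the gap to the nearest array as a share of the group's range. Chance alone marks about 1 group in 20. Ampd3 in EDL of T mice had replicate 3 lowest, at 7.00 (ratio 0.728), and Entpd1 in EDL of T mice had the same mouse highest, at 8.69 (0.67). Ada in SOL of T + WBV mice had replicate 4 highest, at 6.69 (0.748), and in SOL of C + WBV mice replicate 6 lowest, at 3.65 (0.677). Ampd3 in EDL of C mice had replicate 2 highest, at 7.24 (0.653), and Ampd2 in EDL of T mice had replicate 4 lowest, at 3.97 (0.812).

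The tumour difference of 2 genes differed between tissues by the test of that difference. For Ampd1 it was 1.25 higher in SOL and 1.92 higher in HRT than in EDL on the log2 scale, with adjusted p from limma of 0.000409 and 1.02e-05, and for Ampd3 the same contrasts were -1.67 and -2.29 (0.00698 and 0.00181). The Ampd1 value that involves HRT reflects a level there too low to show a fall, so it is no measured difference between tissues.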

How the results depend on the processing

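No value that was called changed sign under any alternative run. Of the values of single genes, 6147 kept their side of the threshold when 1 array was left out, 96 lost the call and 21 gained it. Under the other alternatives 1611 kept it, 27 lost it and 9 gained it. These totals include Entpd1, Gda and the vibration contrasts, in which no gene was called. They therefore do not give the rate of loss among called values. The counts out of 9 that follow include Entpd1 and Gda, which were chosen on the tumour contrasts, so that in these only the calls of the other 7 genes bear on stability. No share of all genes was taken for the alternative runs, so changes in these counts mark nothing particular to the 9 genes. Fitting only the groups compared left 1 of 9 genes called for T + WBV against C + WBV in HRT and 0 for T + WBV against C in HRT, against 2 for each with all 4 groups. The tumour effect in SOL minus EDL was called for 1 gene in place of 2 without the mouse block, after a second quantile normalization over all arrays and with the replicate number as a block. Leaving out single arrays gave 7 to 7, 6 to 7 and 2 to 6 genes called for T against C in EDL, SOL and HRT, with 2 without HRT T replicate 2 and 3 without HRT T replicate 3. For T + WBV against C + WBV it gave 5 to 8, 3 to 6 and 2 to 7, with 3 in SOL without T + WBV replicate 3 and 7 in HRT without T + WBV replicate 2. For T + WBV against C it gave 5 to 8, 4 to 7 and 1 to 7, with 1 in HRT without T + WBV replicate 1 and 7 without T + WBV replicate 2. Tissues of C mice gave 3 to 4, 5 to 6 and 3 to 5 for SOL against EDL, HRT against EDL and HRT against SOL, the last 3 being without HRT C replicate 3, and tumour effects 1 to 2, 2 to 3 and 0 to 0; vibration gave 0 throughout. Of the body mass relations 8 of 18 passed, 5 with carcass mass, 0 without the 2 farthest mice and 0 within the 6 T mice. The cause of these changes was not tested. Replicate numbers did not pair mice: same-numbered arrays of different groups correlated above 0.1 in 3 of 33 pairs in EDL, 5 of 33 in SOL and 0 of 18 in HRT. With the replicate number as a block, 7, 7 and 6 genes were called for T against C, 5, 5 and 2 for T + WBV against C + WBV and 6, 5 and 2 for T + WBV against C in EDL, SOL and HRT, 3, 6 and 5 between tissues of C mice, and 0 for vibration. The covariate for the description suffix could not be fitted in HRT, where no array has one, and genes below the median level, such as Ada and Ampd2, have no value under that filter. Array signals carry no counts, so low levels such as Ampd1 in HRT may be set by background.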
